A study of Mus musculus with 1 sample.

Results

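Transcripts of 9 genes used as markers of epithelial stem and progenitor cells were examined in ovarian surface epithelium: the receptors Lgr4, Lgr5 and Lgr6, the surface proteins Ly6a, Cd44, Cd24a, Prom1 and Procr, and the nuclear protein Bmi1. Members were all probe sets whose only gene symbol in the array's annotation is one of these names. Of the 9 genes, 8 had such a probe set, with 17 probe sets in all, out of 18193 genes and 34945 probe sets with a single symbol. Ly6a had none under this rule and was not analysed here, and no probe set listing several symbols named a member. RNA was taken from the ovarian surface epithelium of 3-month-old wild-type mice, with no allele or agent named in the labels, and was hybridised to an Affymetrix mouse array. The series design names 3 genotypes, and 1 sample, the wild type, was analysed here. No comparison between genotypes was therefore made, no value has a replicate error, and nothing was tested. The number of animals that gave the RNA is not stated in the labels.

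The ovarian surface epithelium is the single layer of mesothelial-type cells over the ovary that is opened and repaired at each ovulation. Lgr4, Lgr5 and Lgr6 are receptors for R-spondins, secreted proteins that raise WNT signalling by removing the ubiquitin ligases ZNRF3 and RNF43 from the cell surface. In mice, Lgr5 marks cycling stem cells of the intestine, and Lgr5-positive cells have also been described in the ovarian surface epithelium. The other members are surface proteins used to sort progenitor cells in several tissues, and Bmi1 is a Polycomb protein that keeps progenitors dividing by repressing the Cdkn2a locus.

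The background limit was set at an intensity of 46.5 (5.54 as log2), which a gene's brightest probe set had to exceed. It is the 95th percentile of 126 probe sets for receptors of smell and taste and for keratin-associated proteins. All 10 surface epithelium and mesothelium markers exceeded this limit, among them the uroplakins Upk3b at up to 20836 and Upk1b at up to 12867, mesothelin (Msln) at 2047, and Krt8, a keratin of simple epithelia, at up to 4573. Cdh1, another of the 10, had 95. The listed markers of the labelled cell type were thus above background, where 62.8% of all genes were. All 4 genes listed for fibroblasts and all 4 listed for macrophages were above the limit too, with Adgre1 at 47 among the latter.

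Transcripts of 7 of the 8 measured marker genes were above background, and Prom1 was not. The share over all genes was 62.8%. When the lowest probe set of a gene was used in place of the brightest, 3 of the 8 were above the limit (Lgr6, Procr and Bmi1), against 39.7% of all genes. The brightest probe sets of the markers had a median of 2.86 above the limit on the log2 scale, against 1.52 over all 18193 genes. These 2 medians are not on a like basis, since 6 of the 8 markers have several probe sets, against 9010 of the 18193 genes. By the lowest probe set the median of the markers was -0.60, and the matching median over all genes was not computed. By probe set, 11 of the 17 were above the limit, against 55.1% of all single-symbol probe sets. The share passing depends on how many probe sets a gene has: it was 47.3% of genes with 1 probe set, 71.8% with 2, 82.9% with 3 and 88% with 4. In a bulk sample, few cells with much of a transcript and many cells with little cannot be told apart.

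**Figure D1:**
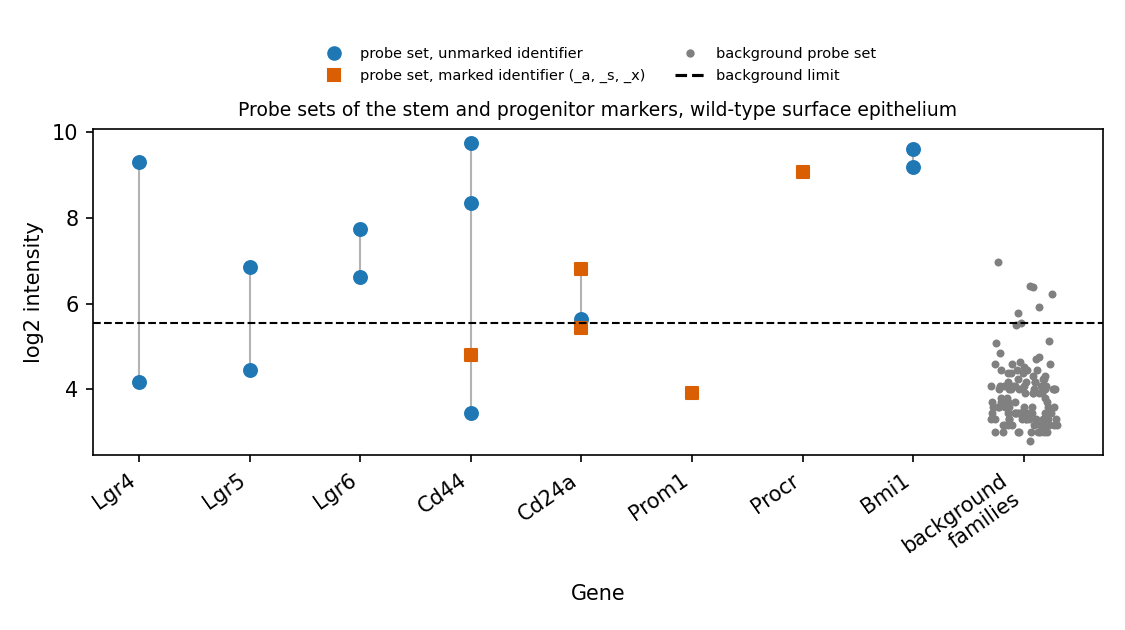
log2 intensity (vertical axis) of every probe set of the 8 measured marker genes (horizontal axis), and of the 126 background probe sets at the right, in the wild-type sample. Circles are probe sets with plain identifiers and squares those with marked identifiers (_a, _s or _x, for probes that match more than 1 transcript), grey lines join probe sets of a gene, and the dashed line is the limit at 5.54. Both Bmi1 and both Lgr6 points lie above the line, the Lgr4, Lgr5, Cd44 and Cd24a points lie on both sides, and the Prom1 point lies below.

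All 3 R-spondin receptors had a probe set above the limit. Each has 2 probe sets, and 71.8% of all genes with 2 probe sets passed in the same way. Lgr4, the member of the family with the widest tissue distribution, had an intensity of 630 on probe set 1433891_at, 13.5 times the limit, and 18 on 1453765_at, below it. Its 2 probe sets thus gave opposite answers, with an SD of 3.63 between them on the log2 scale. Lgr5, the stem cell receptor, had 115 on 1450988_at, 2.47 times the limit, and 22 on 1444519_at. Lgr5 was therefore above background on 1 of 2 probe sets. That value, 6.85 as log2, was still below the brightest of the 126 background probe sets, at 6.97. Lgr6, which marks stem cells of the hair follicle in mice, had 213 on 1436218_at and 99 on 1427028_at. Lgr6 was the only one of the 3 receptors with both probe sets above the limit, at 4.58 and 2.13 times its value. Its lower value, 6.63 as log2, was also below the brightest background probe set, at 6.97, while its higher value, 7.73, was above it. Intensities of different genes depend on the affinity of their probes, so the 3 receptors were not ranked.

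Of the 13 genes listed for the R-spondin and LGR pathway, 11 were above the limit, against 62.8% of all genes. Rspo1, the R-spondin needed for ovarian development in mice, had 3301, and Rspo3, another ligand, had 126 on the brighter of 2 probe sets and 13 on the other. Znrf3, a ligase that R-spondins remove, had 182 on the brighter of 2 and 13 on the other. Rnf43, the related ligase, had 76 on its single probe set. Ligands, receptors and ligases of this pathway thus each had members above background. The median of the brightest probe sets over the 13 genes was 1.44 above the limit on the log2 scale, close to the 1.52 over all genes. By the lowest probe set 6 of the 13 were above it, against 39.7% of all genes.

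The surface proteins were divided. Cd44, the receptor for hyaluronan, had 852 on 1434376_at and 325 on 1423760_at, which are 18.3 and 6.99 times the limit. Its other probe sets, 1452483_a_at and 1443265_at, had 28 and 11, so 2 of 4 were above background, with an SD of 2.94 on the log2 scale. The mRNA of Cd44 is known for alternative splicing, and the annotation used does not give the exons that each probe set reads. Among 9 measured CD44 ligands and cytoskeletal linkers 6 were above the limit, a share near the 62.8% of all genes. Ezr (ezrin) and Msn (moesin), which tie the tail of CD44 to actin, had 11115 and 6542 on their brightest probe sets. Has2 and Has1, enzymes that make hyaluronan, had at most 40 and 46, below the limit of 46.5.

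Cd24a, a small glycosylated protein anchored to the membrane by lipid, had 113 on 1448182_a_at, 50 on 1416034_at and 43 on 1437502_x_at. These 3 values straddled the limit at 2.43, 1.08 and 0.925 times its value, so Cd24a was above background by a narrow margin. The highest of them, 6.82 as log2, was below the brightest background probe set, at 6.97. Removing marked probe sets left Cd24a with the value of 50, against a limit of 45.3. Siglecg, a receptor that binds CD24 in mice, had 226, and Selp, which encodes P-selectin, another binding partner, had 3 probe sets from 9 to 76. Fyn, a SRC-family kinase, had 191 and 271.

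Prom1 (prominin-1, also called CD133), a pentaspan protein of membrane protrusions, had 15 on its single probe set 1419700_a_at. That value is 0.323 times the limit, and near the median of 13 of the background probe sets. A transcript was thus not detectable here on this probe set, which does not show that it was absent. The related Prom2 was also below the limit, with 24 and 28.

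Procr, the endothelial protein C receptor and a marker of stem cells in the mouse mammary gland, had 537 on its single probe set 1420664_s_at, 11.5 times the limit. Endothelium is a usual source of Procr. All 4 endothelial markers were below the limit, with Pecam1 at 14, Cdh5 at up to 23, Tie1 at 13 and Emcn at 11. Which cells gave the Procr signal was not tested. Of the 8 protein C pathway genes 3 were above the limit, against 62.8% of all genes, and their median was -0.80 relative to the limit on the log2 scale, against 1.52 over all genes. Thbd (thrombomodulin), which acts with thrombin to activate protein C, had 4499. F2r, the thrombin receptor PAR1 through which activated protein C signals, had 5560 and 7419, while Proc, protein C itself, had 21. Pros1, which encodes protein S, the cofactor of activated protein C, had 161. The other 4 genes of the list, among them the membrane receptor S1pr1 at 15, were below the limit, so most of this pathway was not above background.

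Bmi1, a RING-finger subunit of Polycomb repressive complex 1, had 775 on 1417493_at and 580 on 1448733_at, which are 16.7 and 12.5 times the limit. The SD between these 2 probe sets was 0.30 on the log2 scale, against 0.75 to 3.63 for the other 5 markers with several. All 14 measured genes listed for the complex were above the limit as well, where 62.8% of all genes were, with a median of 3.25 above it on the log2 scale against 1.52 over all genes. Most of the 14 have several probe sets, and by the lowest probe set 6 of 14 were above the limit, close to the 39.7% of all genes. Ring1 and Rnf2, its ubiquitin ligases, had 282 and up to 936. Pcgf2, the closest relative of Bmi1, had 53 and 44, on either side of the limit. Cbx7, which reads methylated histone H3, had 3 probe sets from 14 to 142.

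Probe sets of the same marker often disagreed. Of the 6 markers with several probe sets 4 had them on both sides of the limit, against 46.7% of the 9010 such genes on the array. The median SD between probe sets was 1.23 over the 6 markers and 1.39 over all those genes, on the log2 scale. The spread also differed with the sequence record that the annotation lists for a probe set. Pairs of probe sets from the same record lay on opposite sides of the limit in 21.5% of 5219 pairs, against 41.0% of 20112 pairs from different records. Both Bmi1 probe sets share a record. The Cd24a values of 113 and 50 share a record too and differed by 1.18 on the log2 scale, close to the median of 1.21 for such pairs. The probe sets of Lgr4, Lgr5, Lgr6 and Cd44 all come from different records.

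Promoters of 6 of the measured markers were found in the RefSeq table of build GRCm38.p6, and 3 of them are shown. Bmi1 and Cd44 hold the most and the fewest CG dinucleotides among the markers above background that have an entry, and Prom1 is the marker below it. Each line gives the 250 bases before the gene start, 5′ to 3′, with every CG in capitals. Of 2 starts listed for Prom1 the one with more CG is shown, and the other holds 3.
Bmi1, chr2:18676768-18677017, plus strand: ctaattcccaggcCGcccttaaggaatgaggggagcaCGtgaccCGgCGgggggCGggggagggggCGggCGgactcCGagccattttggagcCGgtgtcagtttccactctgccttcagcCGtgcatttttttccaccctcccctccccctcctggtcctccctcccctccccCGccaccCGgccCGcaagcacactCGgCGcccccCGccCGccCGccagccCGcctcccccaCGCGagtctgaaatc
Cd44, chr2:102901666-102901915, minus strand: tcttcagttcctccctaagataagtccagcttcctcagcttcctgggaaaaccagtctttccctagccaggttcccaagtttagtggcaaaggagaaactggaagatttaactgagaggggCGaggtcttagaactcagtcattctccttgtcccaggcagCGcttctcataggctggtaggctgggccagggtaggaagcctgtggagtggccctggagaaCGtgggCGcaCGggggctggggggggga
Prom1, chr5:44101737-44101986, minus strand: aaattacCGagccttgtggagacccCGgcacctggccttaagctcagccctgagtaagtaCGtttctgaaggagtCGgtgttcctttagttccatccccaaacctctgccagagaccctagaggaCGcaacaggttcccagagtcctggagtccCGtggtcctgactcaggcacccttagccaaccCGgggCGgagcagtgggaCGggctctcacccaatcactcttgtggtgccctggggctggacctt

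The Bmi1 promoter held 21 CG dinucleotides, and 16.3% of the 32851 promoter entries hold at least as many. The Cd44 promoter held 5, with 55.6% of entries holding at least as many, and the Prom1 promoter held 9, with 40.3%. The remaining markers had 10 (Lgr4), 13 (Procr) and 16 (Lgr6). The median over all entries was 6, and 92.1% of them hold at least 1 CG. Those entries include genes not measured here and more than 1 start of some genes. Neither this median nor the shares of entries given for Bmi1, Cd44 and Prom1 therefore describe the measured genes. Among the 14452 measured genes with an entry, 4499 hold 20 or more, the class of Bmi1. CG was searched as the letters CG, which read the same on both strands. Over the 14452 measured genes with an entry, the share above the background limit was 22.6% with 0 to 4 CG, 52.2% with 5 to 9, 75.1% with 10 to 14, 82% with 15 to 19 and 84.1% with 20 or more. These classes held 3073, 2339, 2269, 2272 and 4499 genes, in that order. A gene with several starts was put in the class of its start with the most CG. Prom1 so fell in the class of 5 to 9 with Cd44, while its other start, with 3 CG, would put it in the class of 0 to 4, below all the markers above background that have an entry. The place of Prom1 thus depends on which start is used, and the array does not say which start these cells use.

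**Figure D2:**
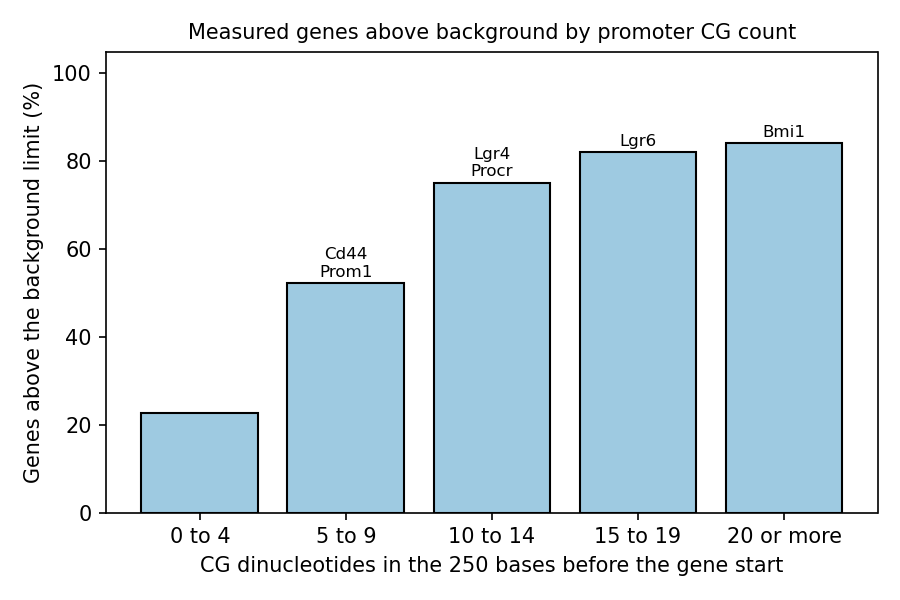
Share of measured genes above the background limit (vertical axis, percent) by the number of CG dinucleotides in the 250 bases before the gene start (horizontal axis), for 14452 genes. Names above the bars show where the 6 markers with a promoter entry fall, each by its start with the most CG; the share is 22.6% in the lowest class and 84.1% in the highest.

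Of 15 other genes proposed as stem cell markers in various tissues 9 were above the limit, a share near the 62.8% of all genes. Aldh1a1 and Aldh1a2, retinal dehydrogenases whose activity is used to sort progenitor cells, had 14238 and 5274 on their single probe sets. Lef1, a transcription factor of WNT signalling, had at most 46, and Kit, a receptor of germ and blood progenitors, had at most 19. Of 8 measured relatives of Ly6a in the Ly6 and uPAR family 4 were above the limit, against 62.8% of all genes. Ly6e had 3527 and 144, and Plaur, the urokinase receptor, had 371. Ly6d, a marker of some B cell progenitors, had 21, and Ly6k had 18 and 30. These values say nothing of Ly6a itself.

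Several markers are also carried by cells other than epithelium, and the levels of those cells' genes stood as follows, beside 62.8% of all genes above the limit. Cd44 and Cd24a are found on blood cells. Of 4 general haematopoietic markers 3 were above the limit, with Ptprc at up to 70, Cd34 at 253 and Coro1a at up to 82, and Spn was below it at up to 27. The macrophage markers Csf1r, C1qa and Cd68 had up to 527, 244 and 334, and Adgre1 had 47. None of 3 T and B cell markers and none of 3 erythroid markers passed, with Cd3e the highest at 46. None of 4 oocyte markers passed, with Gdf9 the highest at 42. Of 4 oviduct markers 1 passed, Pax8, at 107 on the brighter of 2 probe sets and 11 on the other. Of 3 granulosa cell markers 2 passed, Foxl2 at up to 321 and Amh at 58. The genes listed for fibroblasts, Pdgfra, Col1a1, Dcn and Pdpn, had up to 916, 8290, 15048 and 7246. The lowest probe set of Pdgfra had 29, and that of Dcn had 47. Whether these 4 genes are particular to fibroblasts in this tissue was not tested. The part of macrophages, fibroblasts, granulosa cells, endothelium or any other cells in the levels of the stem and progenitor markers was not tested.

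**Figure D3:**
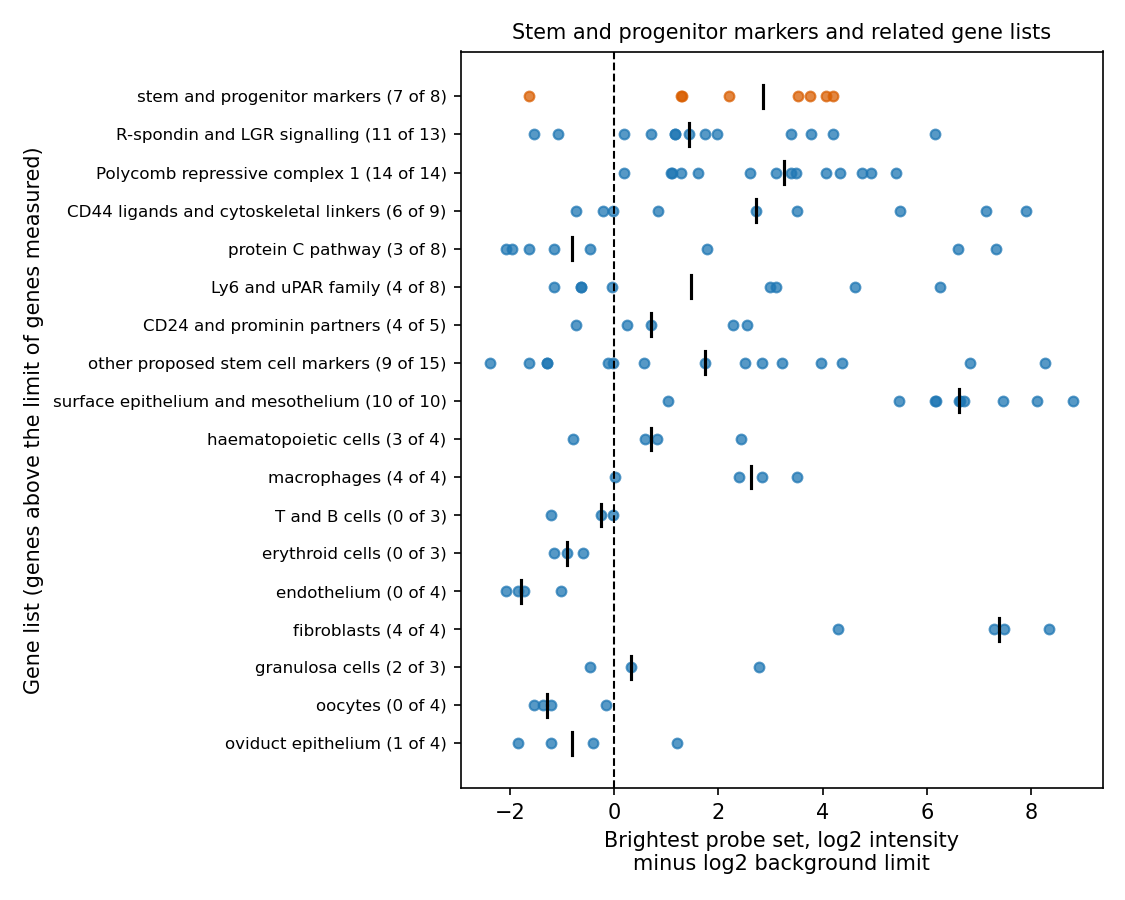
Brightest probe set of each gene as log2 intensity minus the log2 background limit (horizontal axis) for the 8 stem and progenitor markers (top row) and 17 related gene lists, with the number of genes above the limit of those measured beside each name. Points are genes, black ticks are medians and the dashed line is the limit; 7 of 8 markers lie to its right, and all endothelial, erythroid, oocyte, T and B cell points lie to its left.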

How the data were processed

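Per the labels' protocols, total RNA from a spin column was converted to biotinylated cRNA (5 ug input). The deposited table holds 45101 intensities, and affy and RMA appear in the submitters' processing notes. RMA is a procedure of background correction, normalization across arrays and summary of probes. Neither versions nor the set of arrays normalized together is stated. All 45101 intensities were whole numbers from 6 to 32341, so they were taken as linear, although RMA normally returns log2 values; how they became whole numbers is not stated. Rounding amounts to 0.0154 in log2 units at an intensity of 46.5. How RMA changed the spacing of low intensities was not examined.

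Probe sets were named through the platform annotation: 34945 had 1 symbol, 932 several and 9160 none listed, beside 64 control probe sets. The background came from 112 genes, and by construction 7 of their 126 probe sets pass the limit. It takes no account of probe affinity. Members and gene lists were chosen with earlier results of these data known. Every member is named. Of each related list, genes were named from the first 4 measured in written order. S1pr1, Mbp and Cdh1 were named after their values were seen. Alternatives were other percentiles and background genes, the mean or lowest probe set of a gene, and leaving out probe sets whose identifier carries a mark (such as _a, _s or _x) for matching more than 1 transcript or sharing probes. The background step was tested on simulated data in which expressed genes lay well above background. That test could not judge calls near the limit, such as those of Lgr5 and Cd24a. An array has no read depth, and 1 array leaves the precision of every level unknown. Computations ran in Python 3.11.15 with pandas 2.3.3 and NumPy 2.4.6, and figures were drawn with matplotlib 3.10.9.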

Additional observations from a re-analysis of the deposited data

How the results depend on the processing

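Of the 8 measured markers, the same 7 were above background with the limit at the 90th or 99th percentile, with olfactory and vomeronasal receptors or Y-linked genes as background, and with the mean probe set of a gene. The shares of all genes above it were 73.2%, 55.3%, 70.5%, 62.8% and 57.6%, in that order. The limit from Y-linked genes was 47 and depends on 1 bright probe set, that of Sry at 77. Removing marked probe sets left 6 genes, since Prom1 and Procr have only marked ones. All 6 were above, against 59.2% of all genes. With the lowest probe set of a gene, 3 were above (Lgr6, Procr and Bmi1), against 39.7% of all genes, and the median over markers was -0.60 relative to the limit on the log2 scale, with Cd24a at -0.11, Cd44 at -2.08, Lgr4 at -1.37 and Lgr5 at -1.08. With the mean probe set the median was 1.12, with Lgr5 at 0.11 and Cd24a at 0.42. With genes restricted to other organs as background the limit was 315.25, with 4 markers (Lgr4, Cd44, Procr and Bmi1), 6 probe sets and 36.5% of all genes above it. The median was then 0.10, with Cd24a at -1.48, Lgr5 at -1.45 and Lgr6 at -0.57. That list holds Mbp, with 8 probe sets at up to 2526. Without Mbp, a choice made after seeing the data, the limit was 53.15, and 7 markers and 61.0% of all genes passed. The levels of Lgr5 and Cd24a lie nearest to the limit among the markers above it. No paired analysis was possible because there is 1 sample.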
